A study of Mus musculus with 6 samples.

Results

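The genes described here are 34 antiviral effectors and sensors that type I interferon induces, compared between monocytes of thrombocytopenic and control mice. They were taken by symbol from a list of such genes, chosen with earlier results of these data known. All 34 were found among the 56832 genes of the count tables. All 34 also passed the filter on low counts, which 12488 genes passed. Polyadenylated RNA of peripheral blood monocytes was sequenced in 6 libraries, 3 from each group. The thrombocytopenic mice were PF4cre-iDTR: Cre recombinase driven by the promoter of Pf4 (platelet factor 4, a gene of megakaryocytes) turns on a receptor for diphtheria toxin. The control group was wild type. Diphtheria toxin is given as the treatment of both groups, so genotype, killing of toxin-sensitive cells and loss of platelets cannot be told apart. The sources used here state no age, sex, dose or time after toxin. The labels do not tell whether replicate libraries stem from different animals, and p-values therefore measure only the spread between libraries, which may be technical.

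Type I interferons signal through a receptor of the subunits Ifnar1 and Ifnar2, whose kinases Tyk2 and Jak1 activate STAT proteins. With Irf9 these form a transcription factor that binds the interferon-stimulated response element, a short repeat in the promoters of many antiviral genes. The induced proteins sense viral nucleic acid, degrade or withhold viral RNA, block membrane fusion and budding, and feed back on the pathway. Monocytes both make and respond to interferon, and low tonic signalling keeps such genes expressed without infection.

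The libraries held 24842319 to 37552029 counts, and replicate libraries differed by more than counting noise (chi-square per degree of freedom 1.91 to 3.27). The 12 monocyte and macrophage markers were all detected, and their summed level was 19325 to 19724 CPM (counts normalized to the library total) in control and 21842 to 22103 CPM in thrombocytopenic libraries. Markers of T and NK cells summed to at most 1.14 CPM, with Cd3e, Cd3d, Cd3g, Nkg7 and Ncr1 at 0. Erythroid markers summed to at most 2.42 CPM, with Alas2 and Slc4a1 at 0. Pf4 itself was at 909 to 951 CPM in control and 1072 to 1140 CPM in thrombocytopenic libraries. Activity of its promoter, and so of Cre, in the sequenced cells was not tested.

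Most of the antiviral genes were lower in monocytes of thrombocytopenic mice. By edgeR's quasi-likelihood test with Benjamini-Hochberg adjustment over all genes tested, 29 of 34 fell, against 22.7% of all genes tested. Ifitm3 and Ifi27l2a rose, against 22.4% of all genes, and Parp9, Parp14 and Samd9l did not pass the threshold of 0.05. Of the 34, 6 fell by at least 1.5-fold (Rsad2, Ifit2, Ifit3b, Ifi44, Cmpk2 and Ifit3), against 6.83% of all genes. Neither of the higher genes rose by as much. All thrombocytopenic libraries lay below all control libraries for 30 of the 34 genes, against 26% of all genes tested. The median log2 fold change of the 34 genes was -0.24, with quartiles at -0.43 and -0.12. Over all genes tested the median was -0.000771 and the quartiles were -0.19 and 0.13. Among the 5967 genes at or above the control level of the lowest of the 34, 24.97% fell, 34.4% rose and the median was 0.03. Of these 5967 genes, 3.84% passed and fell by at least 1.5-fold. A test against a fold of 1.2 in place of no change kept 13 of the 29, against 9.14% of all genes. These were Rsad2, Cmpk2, Isg20, Ifit1, Ifit2, Ifit3, Ifit3b, Oas3, Oasl1, Mx1, Herc6, Bst2 and Ifi44. In bulk RNA, fewer cells of a type and less RNA per cell cannot be told apart.

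**Figure D1:**
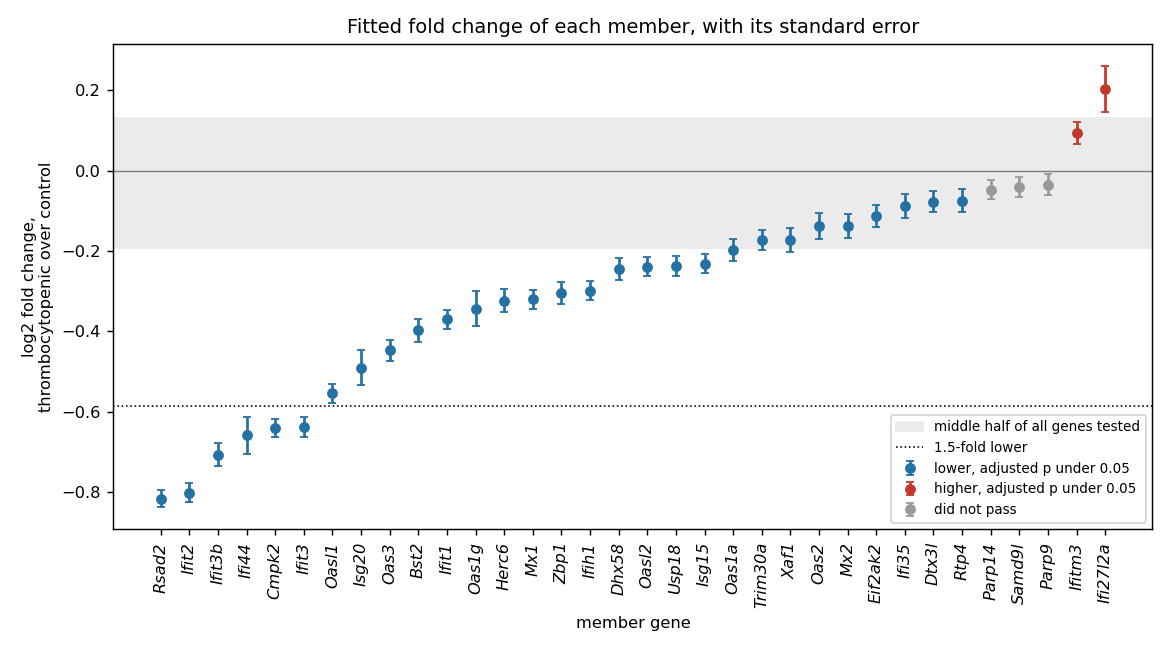
Fitted log2 fold change (thrombocytopenic over control) of the 34 genes on the vertical axis, in order of size, with bars of 1 standard error. The grey band spans the quartiles of all genes tested and the dotted line marks a 1.5-fold fall: 6 genes lie below it and 2 genes lie above 0.

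Summed over the 34 genes, the share of all counts was 2.98%, 2.99% and 3.02% in control libraries 1, 2 and 3. It was 2.24%, 2.24% and 2.23% in thrombocytopenic libraries 1, 2 and 3. The summed level was therefore lower by 7609 CPM, and the groups did not overlap. Rsad2 alone made up 39.4% of that drop, and Rsad2, Cmpk2, Ifit2 and Oasl1 together made up 66.2%. The sum thus described a few abundant genes more than the typical one.

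The promoters of 5 genes are shown because they hold the best supported falls among windows with a response element core, and the neighbouring pair Rsad2 and Cmpk2. Each line gives the 250 bases before the transcription start in RefSeq's GRCm38.p6 assembly, 5′ to 3′ on the strand of the gene. Capitals mark the response element core, GAAANNGAAA, where N is any base, or its reverse complement when the core lies on the other strand.
Rsad2 (chr12:26456453-26456702, minus strand): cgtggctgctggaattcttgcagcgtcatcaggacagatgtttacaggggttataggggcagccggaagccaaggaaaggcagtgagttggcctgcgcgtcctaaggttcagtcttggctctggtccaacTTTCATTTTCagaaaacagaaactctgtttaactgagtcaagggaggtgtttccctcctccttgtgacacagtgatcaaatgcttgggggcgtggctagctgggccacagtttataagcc
Cmpk2 (chr12:26468965-26469214, plus strand): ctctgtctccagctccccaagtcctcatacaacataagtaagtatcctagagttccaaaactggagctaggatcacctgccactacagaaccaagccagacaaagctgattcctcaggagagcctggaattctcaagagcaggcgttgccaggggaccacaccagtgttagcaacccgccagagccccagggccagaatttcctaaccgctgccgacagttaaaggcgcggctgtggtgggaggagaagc
Ifit3 (chr19:34583279-34583528, plus strand): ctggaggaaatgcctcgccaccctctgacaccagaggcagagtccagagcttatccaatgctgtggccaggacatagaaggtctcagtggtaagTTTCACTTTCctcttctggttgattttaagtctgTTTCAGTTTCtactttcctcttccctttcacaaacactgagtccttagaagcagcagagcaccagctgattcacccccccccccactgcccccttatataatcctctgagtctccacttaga
Ifit3b (chr19:34607707-34607956, plus strand): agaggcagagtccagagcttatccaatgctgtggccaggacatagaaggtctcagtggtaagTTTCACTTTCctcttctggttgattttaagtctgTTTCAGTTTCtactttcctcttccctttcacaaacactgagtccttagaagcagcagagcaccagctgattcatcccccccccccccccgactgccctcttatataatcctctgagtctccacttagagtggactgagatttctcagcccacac
Oas3 (chr5:120777660-120777909, minus strand): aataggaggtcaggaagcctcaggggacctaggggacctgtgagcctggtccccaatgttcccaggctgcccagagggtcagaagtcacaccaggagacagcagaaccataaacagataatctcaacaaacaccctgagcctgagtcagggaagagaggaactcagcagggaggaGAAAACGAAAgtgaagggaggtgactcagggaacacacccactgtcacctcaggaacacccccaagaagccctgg
Rsad2 held 1 core, 120 bases before the start, and Oas3 held 1 at 75 bases before it. Ifit3 and Ifit3b each held a pair, at 156 and 122 bases before the start of Ifit3 and at 188 and 154 before that of Ifit3b. The windows of Ifit3 and Ifit3b shared an unbroken run of 169 bases, whereas other pairs among the 5 shared at most 10. The window of Cmpk2 held no core.

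The viperin locus showed the largest fall. Rsad2 encodes viperin, a radical enzyme that makes a chain-terminating nucleotide against viral polymerases. Its level was 6803, 6882 and 6983 CPM in control libraries 1, 2 and 3 and 3924, 3939 and 3876 CPM in thrombocytopenic libraries 1, 2 and 3. The groups were far apart and the libraries within each were close together, and Rsad2 fell by 43.2% (log2 fold change -0.82, SE 0.021, adjusted p = 2.29e-36). Cmpk2, a mitochondrial nucleotide kinase, lies next to Rsad2 on chromosome 12 and is read from the opposite strand. It fell with a log2 fold change of -0.64 (SE 0.023), less than its neighbour. Isg20, an exonuclease that degrades viral RNA, fell by 0.49 on the log2 scale (SE 0.044) at a level near that of the rarer genes, 52.9 ± 0.555 CPM in control and 37.7 ± 2.35 CPM in thrombocytopenic libraries (SD, n = 3).

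All 4 IFIT genes fell, with a median of -0.67. Among the IFIT proteins, Ifit1 binds viral RNA whose cap lacks the methyl marks of host messages and keeps it from the ribosome. Ifit2 stood at 1532, 1538 and 1582 CPM in the control libraries and 905, 883 and 881 CPM in the thrombocytopenic libraries, in replicate order. The groups did not overlap, and Ifit2 fell by 42.6% (log2 fold change -0.80, SE 0.024, adjusted p = 7.24e-34). Ifit1, the cap-binding member and the most abundant of the 4, fell by 0.37 on the log2 scale (SE 0.023). The fall of Ifit1 was thus smaller than that of Ifit2 by far more than either standard error.

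Ifit3 was at 1025, 1036 and 1079 CPM in control and 681, 664 and 672 CPM in thrombocytopenic libraries. Its near copy Ifit3b was at 245, 250 and 254 CPM in control and 153, 152 and 154 CPM in thrombocytopenic libraries. Both were lower in every thrombocytopenic library, with log2 fold changes of -0.64 (SE 0.025) for Ifit3 and -0.71 (SE 0.028) for Ifit3b. Of all 50-base windows of the Ifit3 transcript, 51.2% also occur in Ifit3b, and 44.5% of those of Ifit3b occur in Ifit3, so the split of reads between them is uncertain. Their sum does not depend on that split as long as both took the shared reads. It was 1296 ± 32.9 CPM in control and 825 ± 9.46 CPM in thrombocytopenic libraries (SD, n = 3; log2 ratio -0.65; exact permutation p = 0.1, two-sided, the smallest that 3 against 3 libraries allow). Ifit2, Ifit3, Ifit3b and Ifit1 lie in that order on chromosome 19, with Ifit1bl1 and Ifit1bl2 between them.

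The oligoadenylate synthetase family fell in all 6 genes, but over a wide range. These enzymes sense double-stranded RNA and make short oligoadenylates that switch on the nuclease RNase L. Oasl1, a member without that catalytic activity that restrains translation of Irf7 in mice, was at 1757, 1743 and 1738 CPM in control and 1197, 1214 and 1158 CPM in thrombocytopenic libraries. No thrombocytopenic library came near the control level, and Oasl1 had the largest fall of the family (log2 fold change -0.55, SE 0.024, adjusted p = 6.19e-27). Oasl2, its neighbour on chromosome 5, fell by 0.24 on the log2 scale (SE 0.024). Oas3, which prefers long RNA, fell by 0.45 (SE 0.027), while Oas2 beside it fell by 0.14 (SE 0.032). Neighbours in both pairs therefore moved the same way by different amounts.

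Oas1a and Oas1g are near copies of the small synthetase. Oas1a was at 224, 214 and 220 CPM in control and 190, 194 and 190 CPM in thrombocytopenic libraries. Oas1g was at 49.8, 48.7 and 50.7 CPM in control and 38.8, 40.3 and 38.5 CPM in thrombocytopenic libraries. Neither gene's groups overlapped, and the log2 fold changes were -0.20 (SE 0.028) for Oas1a and -0.34 (SE 0.043) for Oas1g. Of the 50-base windows of Oas1a, 57.6% occur in Oas1g, and 45.2% the other way, so the difference between these folds is uncertain. Their sum was 269 ± 5.59 CPM in control and 230 ± 3.57 CPM in thrombocytopenic libraries (SD, n = 3; log2 ratio -0.22; exact permutation p = 0.1, two-sided).

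Both Mx GTPases, which assemble on and block incoming viral nucleoproteins, fell. Mx1 was at 1368, 1327 and 1374 CPM in control and 1100, 1087 and 1073 CPM in thrombocytopenic libraries. The groups were separate, with a log2 fold change of -0.32 (SE 0.024, adjusted p = 5.41e-17). The rarer Mx2 fell by 0.14 (SE 0.029). The 2 transcripts share few windows of 50 bases, 3.86% of those of Mx1.

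The 4 sensors and kinases fell, with a median of -0.27. Zbp1, a sensor of left-handed nucleic acid that triggers cell death, was at 374, 353 and 368 CPM in control and 300, 299 and 287 CPM in thrombocytopenic libraries. All thrombocytopenic libraries were lower, with a log2 fold change of -0.30 (SE 0.028, adjusted p = 7.41e-14). Ifih1 (MDA5, a sensor of long double-stranded RNA) fell by a similar 0.30 (SE 0.024), and Dhx58 (LGP2, its cofactor) by 0.24 (SE 0.028). Eif2ak2 (PKR, which halts translation on double-stranded RNA) fell by 0.11 (SE 0.027), the smallest fall of the 4.

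Isg15 and both of its enzymes among the 34 fell. Isg15 is a small ubiquitin-like protein that is joined to other proteins, Herc6 is the main mouse ligase for it, and Usp18 removes it and also blocks the interferon receptor. Herc6 was at 256, 251 and 258 CPM in control and 209, 198 and 204 CPM in thrombocytopenic libraries. The groups did not overlap, and Herc6 fell with a log2 fold change of -0.32 (SE 0.028, adjusted p = 2.02e-14). Isg15 fell by 0.23 (SE 0.024) and Usp18 by 0.24 (SE 0.026). The activating enzyme Uba7 (-0.35, SE 0.029) and the conjugating enzyme Ube2l6 (-0.30, SE 0.032), which are not among the 34 and were picked after their values were seen, fell as well.

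The membrane restriction factors went in opposite directions. Bst2 (tetherin), which holds budding virus at the cell surface, was at 269, 289 and 281 CPM in control and 217, 210 and 211 CPM in thrombocytopenic libraries. Those groups were far apart, and Bst2 fell with a log2 fold change of -0.40 (SE 0.029, adjusted p = 2.16e-17). Ifitm3, which blocks fusion of virus with endosomes, was at 530, 497 and 524 CPM in control and 563, 560 and 534 CPM in thrombocytopenic libraries. Its groups nearly touched, and it rose by little (log2 fold change 0.09, SE 0.027, adjusted p = 0.00311). Without control library 2, the lowest of the 6, the rise no longer passed (log2 fold change 0.06, adjusted p = 0.074).

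Bst2 is also a marker of plasmacytoid dendritic cells, which are strong interferon producers. The summed level of the other 9 markers of those cells was 309 to 311 CPM in control and 228 to 234 CPM in thrombocytopenic libraries. Most of it was Tcf4 and Irf8. Of the 8 markers tested, Bst2 among them, 7 fell, against 22.7% of all genes tested. The defining marker Siglech was near 0 in both groups (1.39 ± 0.099 and 0.313 ± 0.0641 CPM, SD, n = 3), and Klk1 was at 0. Markers of conventional dendritic cells summed to 38.6 to 44.96 CPM in control and 21.2 to 24.7 CPM in thrombocytopenic libraries. Of these 9 markers, only 5 had enough counts to be tested, and 4 fell, against 22.7% of all genes tested. Neutrophil markers, mostly Mmp8 and Csf3r, summed to 385 to 404 and 515 to 522 CPM. Of 8 tested, 3 were higher and 1 lower, against 22.4% higher and 22.7% lower over all genes tested. Those that rose were Mmp8, Csf3r and Mmp9, and Ngp fell. S100a8 (8.29 CPM in control and 7.40 CPM in thrombocytopenic libraries) and S100a9 (2.75 and 1.82 CPM) did not pass. Ly6g had 1 count in control and 0 in thrombocytopenic libraries. B cell markers summed to 11.2 to 13.1 and 13.4 to 15.2 CPM, and platelet markers, mostly Pf4 and Ppbp, to 1005 to 1050 and 1219 to 1286 CPM. Of the 4 platelet markers tested, Pf4 and Ppbp rose, while Itga2b (75 counts in control and 36 in thrombocytopenic libraries) and Gp9 (41 and 0 counts) fell. Each of these sums separated the groups, with an exact permutation p = 0.1, two-sided, the smallest possible. Their part in the levels of the antiviral genes was not tested.

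The locus of Parp14, Dtx3l and Parp9, adjacent on chromosome 16, stood close to the control level. Parp9 and the ubiquitin ligase Dtx3l form a complex that modifies proteins at damaged DNA, and Parp14 adds single ADP-ribose units to proteins. Dtx3l was at 518, 513 and 514 CPM in control and 484, 489 and 493 CPM in thrombocytopenic libraries. Its groups did not overlap, and it fell by 0.08 on the log2 scale (SE 0.025, adjusted p = 0.00983). Parp9 was at 306.8, 309 and 308 CPM in control and 306.6, 295 and 300 CPM in thrombocytopenic libraries (log2 fold change -0.03, SE 0.027, adjusted p = 0.308). Its groups did not overlap but nearly touched. Parp14, at 2709, 2911 and 2761 CPM in control and 2665, 2670 and 2778 CPM in thrombocytopenic libraries, overlapped between groups (log2 fold change -0.05, SE 0.024, adjusted p = 0.117). It passed as lower without thrombocytopenic library 3 (adjusted p = 0.0395) or control library 1 (adjusted p = 0.0363).

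Among the 7 remaining genes, 5 fell, Ifi27l2a rose and Samd9l did not pass. Ifi44, an interferon-induced gene of the cytoplasm, was at 48.4, 48.1 and 47.6 CPM in control and 32.3, 29.8 and 29.1 CPM in thrombocytopenic libraries. This separation made it the most changed of the 7 (log2 fold change -0.66, SE 0.046, adjusted p = 7.1e-18), although it was the lowest of all 34 per length of transcript. Ifi27l2a, a small membrane protein and a frequent marker of interferon exposure, was at 21.7, 21.6 and 23.98 CPM in control and 26.5, 26.9 and 24.2 CPM in thrombocytopenic libraries. Thrombocytopenic library 3 was level with control library 3, and the gene rose (log2 fold change 0.20, SE 0.057, adjusted p = 0.00247).

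Samd9l, a restrictor of translation in virus-infected cells, was at 778, 785 and 798 CPM in control and 767, 757 and 771 CPM in thrombocytopenic libraries (log2 fold change -0.04, SE 0.024, adjusted p = 0.175). Its groups did not overlap but lay close together. Trim30a, a ubiquitin ligase family member (-0.17, SE 0.024), and Xaf1, a partner of the apoptosis inhibitor XIAP (-0.17, SE 0.030), fell. Ifi35 fell by 0.09 (SE 0.030), a call that was lost without thrombocytopenic library 3 (adjusted p = 0.109). Rtp4, a receptor chaperone, fell by 0.07 (SE 0.028) with overlapping groups. That call was lost without thrombocytopenic library 3 (adjusted p = 0.28), control library 1 (adjusted p = 0.134) or control library 3 (adjusted p = 0.0999), and by DESeq2 (adjusted p = 0.0728).

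**Figure D2:**
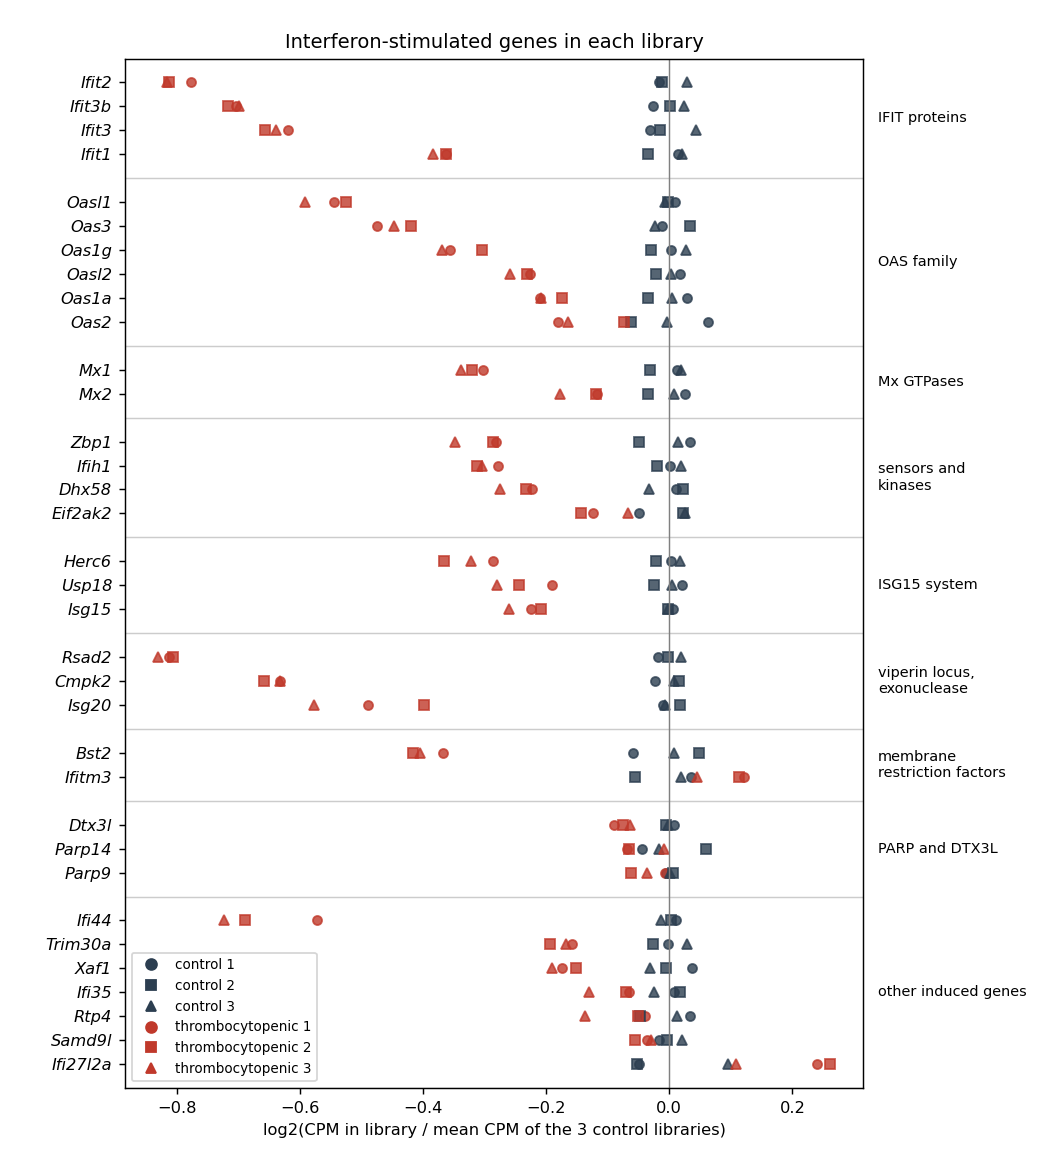
Each row is 1 gene, grouped by role, and each point is 1 library, placed by the log2 ratio of its CPM to the mean of the 3 control libraries. Thrombocytopenic libraries (red) lie to the left of control libraries (dark) for 30 genes, by most in Rsad2 and Ifit2, and to the right for Ifitm3 and Ifi27l2a.

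Libraries of a group differed little in these genes. The median deviation of the 34 genes from their group mean was 0.014, 0.0074 and -0.016 on the log2 scale in thrombocytopenic libraries 1, 2 and 3. It was 0.0043, -0.0088 and 0.0083 in control libraries 1, 2 and 3. Thrombocytopenic library 1 was the highest of its group for 17 genes and library 3 the lowest for 19. These shifts were small beside the median group difference of -0.24.

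Per kilobase of exon (lengths from GENCODE M21), the control level ran from 1589 CPM per kb for Rsad2 to 7.83 CPM per kb for Ifi44. Rsad2 ranked first in control, ahead of Isg15 at 1222 CPM per kb. In thrombocytopenic libraries this order changed, with Isg15 at 1041 and Rsad2 at 903 CPM per kb. Next in control came Ifit1 (836), Ifitm3 (763) and Oasl1 (670 CPM per kb), and in thrombocytopenic libraries Ifitm3 (814) stood above Ifit1 (647 CPM per kb). Some neighbours in the control order lay closer than the sum of their SDs: Bst2 and Parp14, Rtp4 and Oasl2, Oasl2 and Samd9l, Ifih1 and Oas1a, Zbp1 and Ifi35, Dhx58 and Eif2ak2, Mx2 and Ifi27l2a, and Oas2 and Xaf1. Across the 34 genes, the log2 control level per kb and the log2 fold change had a Pearson r of -0.21 and a Spearman rho of -0.19. These points share the same 6 libraries, and the levels use the control libraries that also enter the folds.

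RefSeq promoter windows (250 bases before to 50 after the start) were at hand for 24 of the 34 genes, in 28 windows. Dhx58, Parp9, Parp14, Mx1, Mx2, Usp18, Zbp1, Ifi27l2a, Rtp4 and Oas2 had none. The response element core GAAANNGAAA, on either strand, was in 13 of 24 genes and in 14 of their 28 windows, against 3.44% of all 32851 windows. The longer form that goes on with CT was in 8 of the 24 genes and in 9 of their 28 windows, against 0.271% of all windows. The core of the gamma-activated site, TTCNNNGAA, a motif of interferon gamma signalling, was in 7 of the 28 windows of these genes and 8.30% of all windows. It can overlap the response element core. Isg15 held 3 overlapping response element cores, the first of them 78 bases before the start. Genes with and without the core had similar medians: the median log2 fold change was -0.34 for the 13 genes with a core and -0.32 for the 11 without. The largest fall (Rsad2) and a rise (Ifitm3) were both among genes with a core, and Ifit2 and Cmpk2 had none in these windows. The 10 genes with no window in the table had a median of -0.14.

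**Figure D3:**
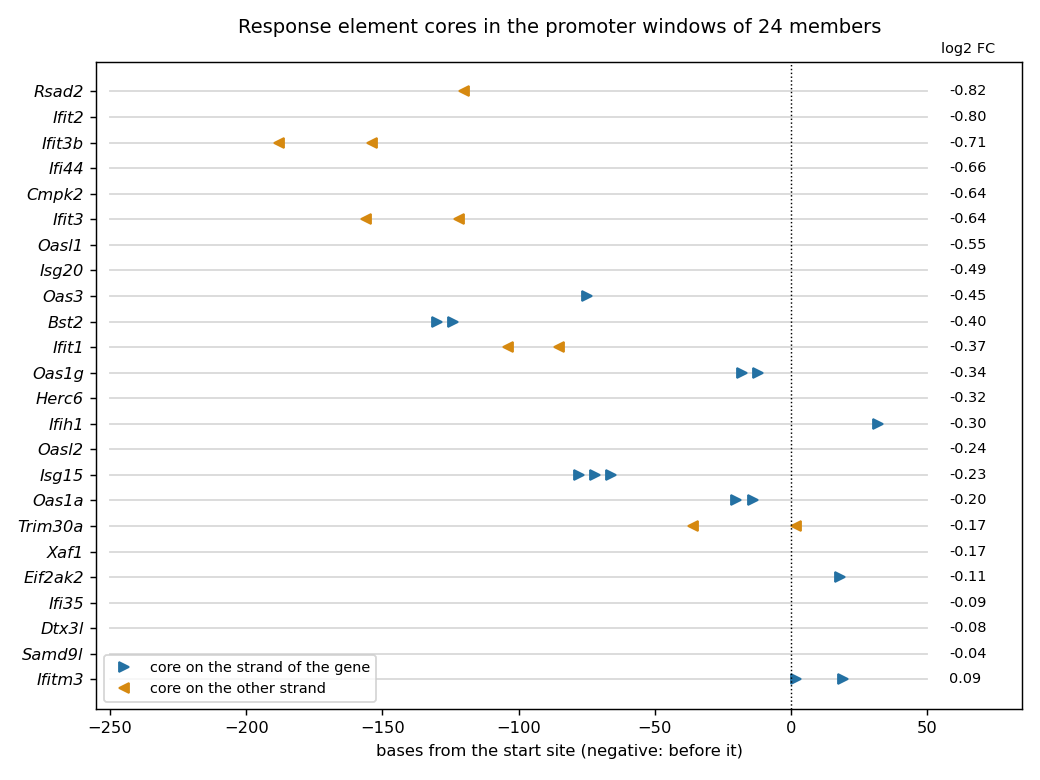
Positions of the response element core (triangles, pointing right on the strand of the gene and left on the other) along the promoter windows of 24 genes, in bases from the start site, ordered by log2 fold change, which is printed at the right. Where a gene has several windows they are drawn on 1 line, and cores occur from the top of the order (Rsad2) to its end (Ifitm3).

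Upstream of these genes, nearly all ligands were undetected. Of 21 interferon genes listed, 19 had 0 counts in all libraries, all 13 interferon alpha genes and Ifng among them. A total of 3 counts in a group, taken as the limit that a count of 0 allows, would be 0.0335 CPM in control and 0.0291 CPM in thrombocytopenic libraries, for counting error only. Ifnb1, the early interferon of myeloid cells, was the only ligand tested. It was at 2.85, 2.64 and 2.41 CPM in control and 4.07, 3.15 and 4.89 CPM in thrombocytopenic libraries, from 235 and 421 counts in all. The groups did not overlap, and Ifnb1 rose (log2 fold change 0.63, SE 0.148, adjusted p = 0.000349) while most of the antiviral genes fell. Leaving out single libraries kept that call, with log2 fold changes from 0.47 to 0.77.

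Of the 7 receptor and kinase genes, 2 rose, 1 fell and 4 did not pass, shares near the 22.4% and 22.7% of all genes tested. Ifnar1 was at 412 ± 3.26 CPM in control and 418 ± 6.41 CPM in thrombocytopenic libraries (SD, n = 3; log2 fold change 0.02, SE 0.026, adjusted p = 0.539). Ifnar2 (-0.04, SE 0.030, adjusted p = 0.343) and Jak1 (-0.02, SE 0.026, adjusted p = 0.629) did not pass either. Tyk2 rose by little (0.08, SE 0.029, adjusted p = 0.0166). That call was lost without thrombocytopenic library 3 (adjusted p = 0.097), control library 1 (0.0912) or control library 3 (0.114). Of the genes shared with or used by interferon gamma, the receptor chain Ifngr1 rose (0.51, SE 0.038), the kinase Jak2 fell (-0.23, SE 0.025) and Ifngr2 did not pass (-0.03, SE 0.027).

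Of 8 STAT and IRF factors, 5 fell, against 22.7% of all genes tested, and none rose. Stat2 fell (-0.18, SE 0.025), and Irf9, which forms a complex with it, was at 149 ± 1.73 and 151 ± 2.97 CPM (SD, n = 3; log2 fold change 0.02, SE 0.030, adjusted p = 0.655). Irf7, which amplifies interferon production and is itself induced by interferon, fell by 0.33 (SE 0.025). Irf8 (-0.40, SE 0.032), Irf1 (-0.26, SE 0.030) and Irf2 (-0.11, SE 0.030) fell too, and Irf3 (0.08, SE 0.052) and Irf5 (-0.05, SE 0.027) did not pass.

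The list for the induction of interferon held 20 symbols, and those not tested were other names of tested genes. Of the 17 genes tested, 9 fell, against 22.7% of all genes tested, and 4 rose, near the 22.4% of all genes. The endosomal receptors for nucleic acid on this list fell. Tlr9, which senses DNA, fell by 1.06 on the log2 scale (SE 0.047), and the RNA sensors Tlr3 by 0.56 (SE 0.037) and Tlr7 by 0.40 (SE 0.027). Ikbke, a kinase that activates Irf3 and Irf7, rose by 0.35 (SE 0.025), and Tbk1 (0.15), Tank (0.13) and Myd88 (0.11) were the other higher genes. Of 10 negative regulators, 5 rose, against 22.4% of all genes, and 2 fell, near the 22.7% of all genes. Socs3 (0.46, SE 0.026), Ptpn6 (0.42, SE 0.025) and Trim24 (0.48, SE 0.086) rose, as did Ptpn1 (0.22) and Pias3 (0.28). Socs1, the suppressor that binds Tyk2 at the interferon receptor, fell by 0.22 (SE 0.053), and Irf2bp1 fell by 0.33 (SE 0.067).

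Of 41 other genes that interferon induces, 34 fell, against 22.7% of all genes tested, none rose and 7 did not pass. Their median was -0.23, against -0.24 for the 34 genes. Like the 34, these 41 were listed with earlier results of these data known. Tnfsf10 (TRAIL, a death ligand) went from 106 ± 4.05 to 58.2 ± 1.33 CPM (SD, n = 3; log2 fold change -0.86, SE 0.036, adjusted p = 3.31e-27). Mov10, an RNA helicase (-0.47, SE 0.032), Tor3a (-0.39, SE 0.026) and Cd274 (PD-L1, a ligand that restrains T cells; -0.35, SE 0.024) also fell. Only Tnfsf10 and Gm4951 (-0.91, SE 0.079), the latter chosen after its value was seen, fell by at least 1.5-fold, which 6.83% of all genes did.

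**Figure D4:**
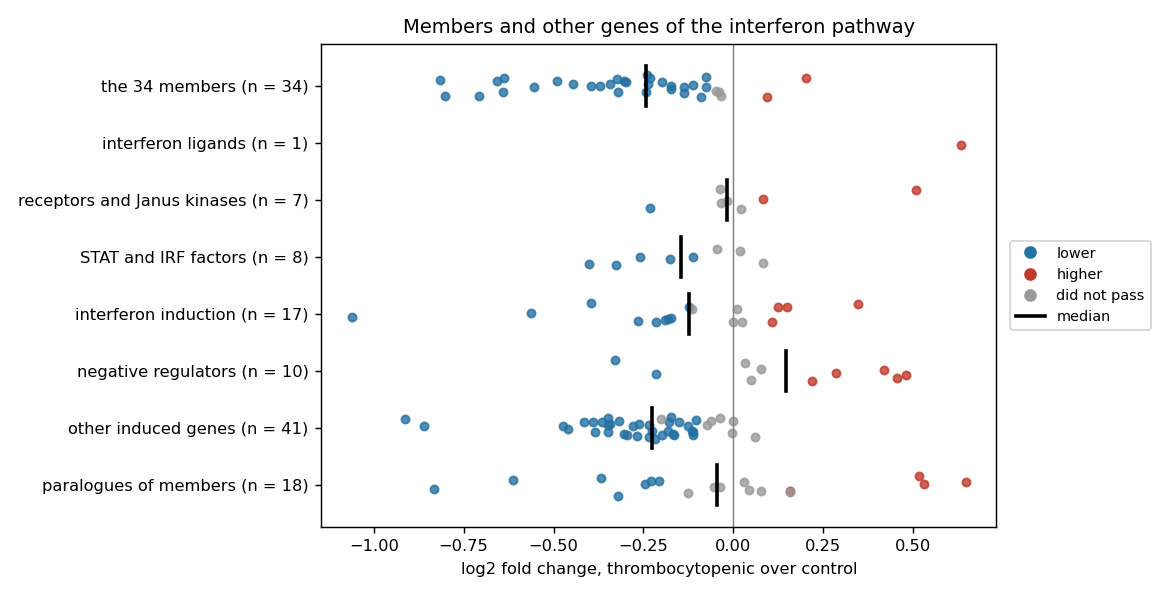
Log2 fold change (thrombocytopenic over control) of every tested gene in the list of 34 and in 7 other lists of the pathway, 1 point per gene, with blue for lower, red for higher and grey for not passed. The black bars mark medians, -0.24 for the 34 genes and -0.23 for the 41 other induced genes, and the single ligand, Ifnb1, is at 0.63.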

How the data were processed

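Gene counts of 6 libraries, whole numbers that are raw and not normalized, were deposited by the authors in 1 table per library. Per the labels' protocols, RNA was selected with oligo-dT beads and sequenced from strand-marked TruSeq libraries. Per the submitters' processing notes, the tools included Salmon 1.5.2, STAR 2.7.9a, fastp 0.23.1 and featureCounts of Subread 2.0.1. Not given in the sources used here were their roles, the genome build, the annotation and the use of strand in counting, so near copies and overlapping genes are uncertain.

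The counts were fitted in R 4.3.3 with edgeR 4.0.16: filterByExpr (minimum count 10, minimum total 15), TMM factors, and the robust quasi-likelihood test with group as the only term, two-sided. P-values were adjusted by Benjamini-Hochberg over the 12488 genes tested (threshold 0.05). The CPM values of single genes are TMM-scaled, and sums over lists use library totals. The procedure was tested on simulated data. Depth was 24842319 to 37552029 counts per library. Same-numbered libraries of the 2 groups did not deviate together (r -0.038, -0.089 and -0.013), so numbers were not used as pairs. Promoter windows and gene order came from RefSeq tables (GRCm38.p6), exon lengths from GENCODE M21. Proteins were not analysed here.

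The 34 genes and the other lists (ligands, receptors and kinases, STAT and IRF factors, induction, negative regulators, other induced genes, paralogues and cell type markers) were chosen with earlier results of these data known. Values in every library were given for the gene with the largest absolute log2 fold change in each role, for each gene that rose or did not pass, and for the pairs Ifit3 and Ifit3b, and Oas1a and Oas1g. Outside the 34, Ifnb1, Ifnar1, Ifnar2, Jak1, Tyk2, Stat2, Irf9 and Irf7 were always named, with up to 4 tested genes of smallest p in each other list. Some genes that meet this rule are left out of the text. Further genes there complete a short count or were chosen after their values were seen. As alternatives, scaling by library total, upper quartile or RLE factors was tried, with limma-voom (limma 3.58.1), DESeq2 1.42.0, a non-robust fit, other filters and thresholds, a test against a fold of 1.2, a replicate block and leaving out each library.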

Additional observations from a re-analysis of the deposited data

How the results depend on the processing

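No result past its threshold changed direction under any alternative. Of 578 results of single genes of the 34, 548 kept their call, 26 lost it and 4 gained it. The test against a fold of 1.2 asks for more than a difference, so it called fewer. It left 13 of the 34 lower and 0 higher, and 1141 lower and 576 higher genes over all. By role it left 2 lower in the synthetase family, 1 of the Mx genes, 0 of the sensors, 1 of the Isg15 system, 0 of the Parp locus and 1 lower and 0 higher of the remaining 7, and 0 membrane factors higher. Outside the 34 it left 0 receptor genes lower and 1 higher, 2 STAT and IRF factors lower, 3 induction genes lower and 1 higher, 0 negative regulators lower and 3 higher, 11 other induced genes lower, and 2 paralogues lower and 1 higher. Upper quartile scaling gave 1 receptor gene higher, 2 genes of the Parp locus lower (Parp14 passed, as did Samd9l elsewhere) and a median of -0.27 for the 34. A threshold of 0.01 gave 1 receptor gene higher, 2 paralogues higher and 3 of the remaining 7 lower. DESeq2 gave 2 paralogues higher, and the cause was not tested. The longer response element core was in 8 genes in place of 13, since it asks for more letters. Leaving out single libraries gave 28 to 29 of the 34 lower, 1 to 2 higher (1 without control library 2) and a median from -0.26 to -0.23. It also gave 1 to 2 receptor genes higher, 2 to 5 paralogues higher, 0 to 1 membrane factors higher, 1 to 2 of the Parp locus lower and 3 to 5 of the remaining 7 lower. With the replicate number as a block, 29 of the 34 were lower and 2 higher, as without it, and 2723 lower and 2679 higher genes were called over all. The labels give no pairing behind these numbers, and no library deviated most like the one with its own number. Depth leaves genes under about 1 CPM, such as Siglech in thrombocytopenic libraries and Ifitm6 in control libraries, with few counts.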

Other observations

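Close relatives of the 34 genes went in both directions. Of 18 paralogues tested (25 listed), 7 fell, 4 rose and 7 did not pass, against 22.7% lower and 22.4% higher over all genes tested, with a median log2 fold change of -0.05. Ifit1bl1, which lies among the IFIT genes, was at 89.5, 85.9 and 89.2 CPM in control and 51.4, 47.2 and 49.5 CPM in thrombocytopenic libraries. Its groups were far apart, and it fell as much as Ifit2 (-0.83, SE 0.038, adjusted p = 1.32e-25). The Trim30 relatives fell as Trim30a did: Trim30c by 0.61 (SE 0.036), Trim30b by 0.37 (SE 0.060) and Trim30d by 0.21 (SE 0.028).

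The 4 paralogues that rose were Ifitm2, Ifitm6, Ifitm7 and Herc4. Ifitm2 was at 80.5, 73.7 and 74.3 CPM in control and 112, 114 and 103 CPM in thrombocytopenic libraries. No libraries overlapped, and its rise was larger than that of Ifitm3 (0.53, SE 0.038, adjusted p = 7.28e-16). Ifitm6 (0.65, SE 0.238, adjusted p = 0.0224) and Ifitm7 (0.52, SE 0.217, adjusted p = 0.0473) were at 0.882 and 1.17 CPM in control, and both calls were lost in DESeq2 (adjusted p = 0.0679 and 0.131). Ifitm6 also lost its call without thrombocytopenic library 3, control library 1 or control library 3. Ifitm7 lost it without thrombocytopenic library 1 or 3, or control library 2 or 3. Ifitm1 did not pass (0.03, SE 0.088). Relatives of Herc6, which fell, went both ways: Herc4 rose (0.16, SE 0.036), Herc3 fell (-0.32, SE 0.053), and Herc1 (0.16, SE 0.065) and Herc2 (0.08, SE 0.089) did not pass. Parp8 fell (-0.23, SE 0.035) and Parp1 did not pass (-0.04, SE 0.034).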
